A study of Mus musculus with 16 samples.

Results

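The cardiac region of G17 mutant mouse embryos was compared, gene by gene, with that of their control littermates. The G17 mutants were homozygous for an altered Greb1l allele, labelled Greb1lex17/ex17, and the G17 controls were labelled as wild-type littermates. All were C57BL/6J embryos at the stage labelled E8.5e, that is embryonic day 8.5, and each library came from the microdissected, flash-frozen heart region of an embryo. There were 4 mutants (embryos 33, 36, 41 and 42) and 4 controls (embryos 20, 29, 35 and 37), which are 8 of the 16 embryos of the series. The other 8 belong to line G3, with 4 embryos labelled homozygous for the allele Greb1lem1Cjean and 4 wild-type littermates. All genes with a value of at least 10 normalised reads in at least 4 of the 8 G17 embryos were examined, which gave 17706 of the 48526 genes in the deposited table. The genotype label names no tissue-restricted allele, so tissues outside the heart carry it too. The labels name no litter, sex or sequencing batch.

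GREB1L is a nuclear protein related to GREB1, a coactivator of steroid hormone receptors, and loss of its gene in mice and humans is known to disturb kidney and inner ear formation. At this stage the heart is a tube that begins to loop while progenitor cells of the second heart field are added at its ends. The tube lies against the ventral foregut and below the brain, and its inflow end is close to the yolk sac, whose visceral endoderm makes plasma apolipoproteins and takes up nutrients. A dissected cardiac region can therefore hold neighbouring tissue as well as heart muscle.

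The mutant libraries held 43076932 to 48366536 reads in genes and the control libraries 34617710 to 45227363. A normalised read is a read divided by the size factor of its embryo, so that libraries of different depth can be compared, and 4 values in a row are always given in the order of the embryo numbers above. Defining markers of heart muscle (Tnnt2, Actc1, Myl7, Myh6, Myh7 and Nkx2-5) summed to 125968 to 193907 normalised reads in the mutants and 99466 to 170309 in the controls, and none of these 6 genes passed the test. Xist, which is transcribed from an inactive X chromosome, was high in all 8 embryos, at 40867 to 58973 normalised reads in the mutants and 41381 to 49314 in the controls. In bulk tissue, fewer cells of a type and less RNA per cell cannot be told apart. In line G3, the libraries labelled mutant had more Greb1l RNA than their controls, which goes against a loss of that RNA. Directions in G3 therefore rest on the labels.

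Greb1l RNA was reduced, but not absent, in the mutants. Greb1l (ENSMUSG00000042942; GRCm38 chromosome 18, 10325177 to 10562940, plus strand) had 3255, 5428, 4504 and 3673 normalised reads in the mutants, against 10181, 10278, 9193 and 9619 in the controls. Every mutant was below every control (log2 fold change -1.25 ± 0.13, adjusted p = 0.000288; limma on log2(value + 1), Benjamini-Hochberg adjusted over all genes tested; ± is the SE of a log2 fold change throughout). In an exact permutation test of the 2 means (two-sided) p was 0.0286, and no smaller p can be reached with 70 ways to split 8 embryos. Greb1, the gene of the related coactivator, had 4743, 5117, 5771 and 4567 in the mutants, against 4449, 5655, 3964 and 4224 in the controls, and did not pass the test (0.15 ± 0.11, adjusted p = 0.569). The list of GREB1 family and nuclear receptor genes had 39 tested members, of which 1 rose and 2 fell. Nr0b1, an orphan receptor gene of early embryo cells and steroidogenic tissue, rose and had 141, 91.9, 82.4 and 36.5 in the mutants, against 0, 0, 8.52 and 0 in the controls. Its controls held reads in embryo 35 alone, so its fitted change (5.51 ± 1.15) depends on the pseudocount. Nr0b1 reached the level required for testing in the mutants alone, so it entered the test through them. When a mutant was left out of the fit, Nr0b1 was therefore not tested. It was called in the 4 fits that left out a control. Hnf4a, a receptor gene of liver and visceral endoderm, fell with the yolk sac genes described below.

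In all, 331 genes rose and 206 fell, 3.03% of the genes tested (1.87% rose and 1.16% fell). Changes of more than 2-fold were found at 154 of the rising and 72 of the falling genes, and of more than 4-fold at 57 and 34. The median log2 fold change was 0.91 among rising and -0.68 among falling genes, and -0.01 over all genes tested. Mutants and controls did not overlap at 502 of the 537 called genes, and at 9.93% of all genes tested. Detection followed abundance. Of genes whose higher group averaged under 100 normalised reads 0.218% were called, and of those over 10000 reads 7.8%. The median SE was 1.23 in the first class and 0.0671 in the last. Protein-coding genes supplied 328 of the rising and 201 of the falling calls.

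The calls rest on few embryos. When each embryo was left out in turn, 149 of the rising and 32 of the falling genes were called every time. A gene below the filter in such a fit was not tested there and counts as not called. Without mutant 36, 41 or 42 the number that rose was 187, 207 or 169, and the number that fell 59, 70 or 50. Without control 35 or 37, 53 or 70 genes fell. The yolk sac marker level also moved with the groups, as described next, and with it as a term in the model 113 genes rose and 28 fell. Of the 537 genes, 533 kept their direction in that fit and 89 were called.

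**Figure D1:**
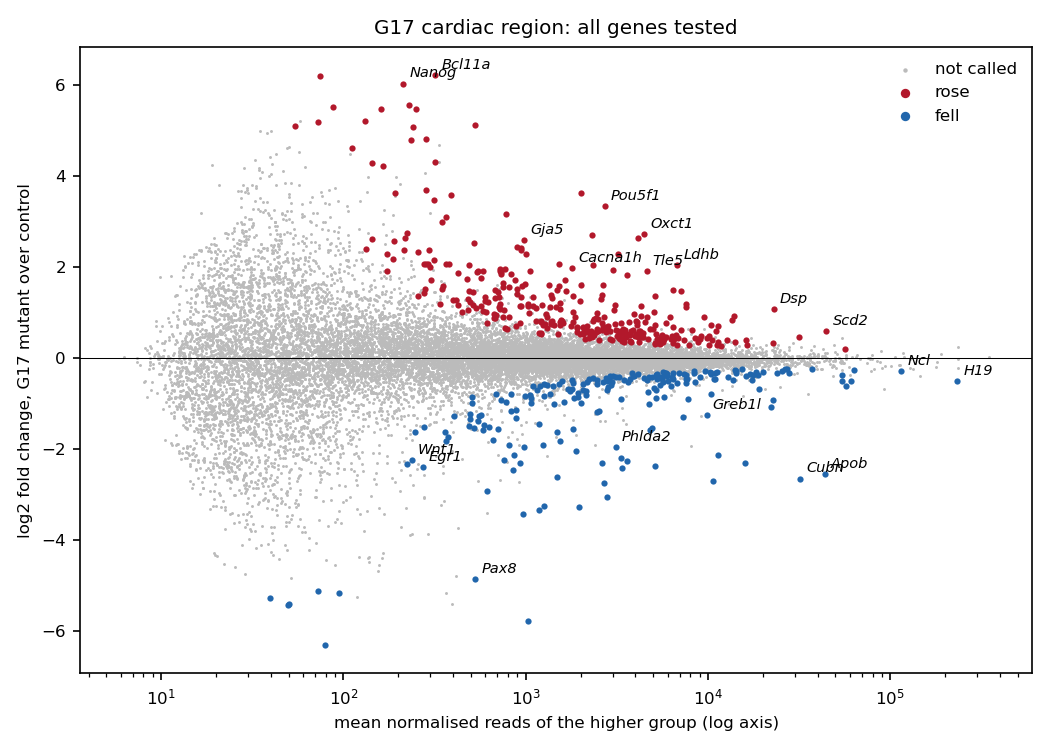
Each point is 1 of the 17706 genes tested, with the mean normalised reads of its higher group on a log x axis and its log2 fold change, G17 mutant over control, on the y axis. Red points rose and blue points fell (limma, Benjamini-Hochberg adjusted p under 0.05); the 331 rising and 206 falling genes lie closer to 0 as abundance grows.

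Among genes of small spread, Tle5, which encodes a short Groucho-family corepressor, had 4498, 4463, 4681 and 4772 normalised reads in the mutants, against 1247, 1273, 1076 and 1311 in the controls (log2 fold change 1.91 ± 0.09, adjusted p = 4.22e-07). Pcolce, whose product enhances the maturation of fibrillar procollagen, had 3639, 3323, 2719.97 and 3218 in the mutants, against 657, 902, 731 and 432 in the controls (2.28 ± 0.19, adjusted p = 5.53e-05). Antxr1, a collagen-binding receptor gene, had 1141, 1814, 1566 and 1572 in the mutants, against 359, 316, 443 and 316 in the controls. Trp53i11, named as inducible by p53, averaged 5130.4 ± 598 in the mutants and 1998 ± 219.5 in the controls (SD, n = 4 each), and the membrane protein gene Tmem98 2647 ± 283 in the mutants and 869.7 ± 128 in the controls. Among abundant genes, Prtg, a cell surface protein gene of the immunoglobulin superfamily active in early embryos, fell to 43031 in the mutants, against 60970 in the controls (-0.50 ± 0.06, adjusted p = 0.000954). The translation initiation factor gene Eif4g1 averaged 53332 in the mutants and 63505 in the controls (-0.25 ± 0.05, adjusted p = 0.0144).

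Among the largest rises were genes with few or no reads in some controls. Cpa1, a carboxypeptidase gene of the pancreas, had 633, 521, 323 and 635 normalised reads in the mutants, against 26.5, 24.9, 64.5 and 0 in the controls. Itih2, which encodes a hyaluronan-binding plasma protein, had 424, 538, 284 and 316 in the mutants, against 8.49, 48.8, 38.9 and 49.98 in the controls, and Aldh1b1, a mitochondrial aldehyde dehydrogenase gene, 461, 249.6, 285 and 260.2 in the mutants, against 27.6, 16.3, 53.5 and 19.6 in the controls. Tbx4, a T-box factor gene of hindlimb and lung mesenchyme, averaged 132 in the mutants and 4.21 in the controls. Asap3, an ARF GTPase-activating protein gene, averaged 778 ± 115 in the mutants and 93.96 ± 47.7 in the controls (SD, n = 4 each; 3.17 ± 0.35, adjusted p = 0.000477). In each of these 5 genes all mutants were above all controls, because the largest rises were picked among genes without overlap. Tbx4 reached 10 normalised reads in the mutants alone, so it entered the test through them.

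Genes of the yolk sac visceral endoderm were lower in most mutants. Of the 35 tested members of that list, 15 fell and 1 rose, and 34 of the 35 fold changes were negative, with a median of -2.12. Apob, the structural protein gene of lipid transport particles, had 15418, 3019.8, 4748 and 5265 normalised reads in the mutants, against 11562, 92101, 37980.1 and 33571 in the controls. Cubn, the gene of the nutrient receptor cubilin, had 11842, 2070.5, 3073 and 3273 in the mutants, against 7963, 66919, 27242 and 25739.6 in the controls, and Afp, the alpha-fetoprotein gene, 4718, 613, 643 and 1391 in the mutants, against 2695, 22727, 8680.3 and 8664 in the controls. In these 3 genes mutant 33 was above control 20, so that the groups overlapped. Control 29 held the highest and control 20 the lowest control value. Abcc2, an apical export pump gene, had 281, 91.9, 60.9 and 27.8 in the mutants, against 305, 2949.9, 921 and 578 in the controls. The groups were apart for Abcc2, by a narrow margin between mutant 33 and control 20.

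The 6 defining markers (Afp, Apoa1, Apoa4, Ttr, Amn and Cubn) summed to 31607, 5939, 7431 and 10826 normalised reads in the mutants, against 20572, 148527, 68605 and 62729 in the controls. None was at 0 in all embryos. The factor genes Hnf4a (1283, 229, 336 and 395 in the mutants, against 863, 5090.4, 2313 and 2238 in the controls) and Maf (496, 207, 245 and 348 in the mutants, against 679, 1997, 1204 and 1095 in the controls) fell too. Cebpa, the remaining called member, rose and had 219, 164, 275 and 279 in the mutants, against 7.43, 0, 24.3 and 20.6 in the controls. The number of list members that fell was between 0 and 26 when 1 embryo was left out. It was 0 with the mean log2 marker level as a term, which is built from 6 of these genes. Whether the dissection took less yolk sac with the mutants or the embryos had less of it cannot be told apart.

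**Figure D2:**
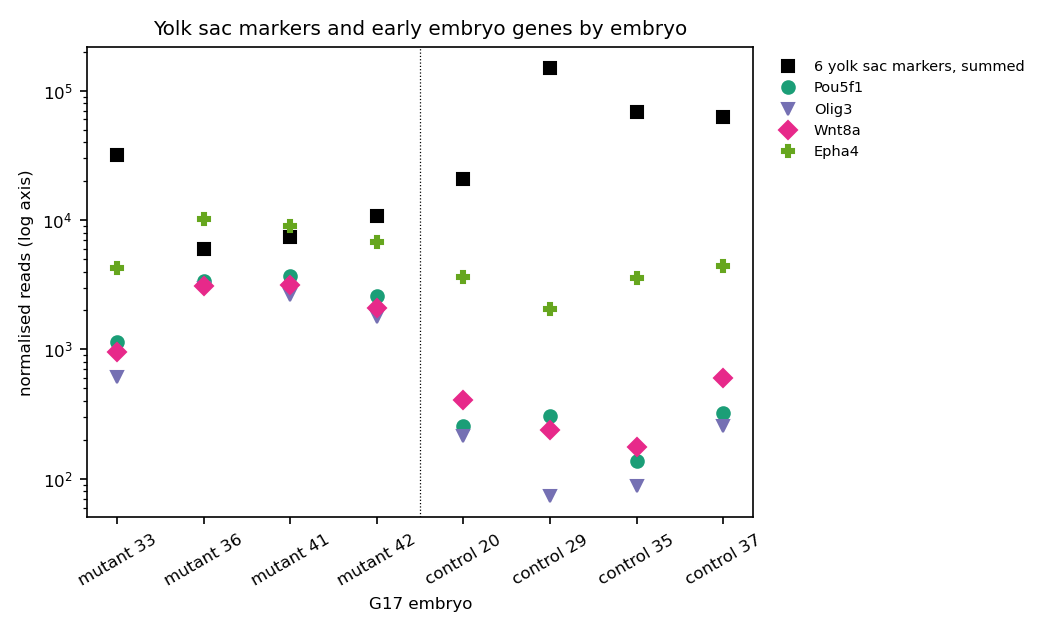
Normalised reads (log y axis) of the 6 summed yolk sac markers and of 4 genes of early embryo and neural cells in each of the 8 G17 embryos, mutants left of the dotted line. Mutant 33 has the highest yolk sac sum of the mutants (31607) and their lowest Pou5f1, Olig3, Wnt8a and Epha4; control 29 has the highest sum (148527).

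Some genes of nutrient transport and amino acid metabolism fell. Slc2a1, the main glucose transporter gene of embryos, had 41316, 33932, 35283 and 35632 normalised reads in the mutants, against 47762, 83730.5, 50594 and 46589 in the controls (log2 fold change -0.60 ± 0.15, adjusted p = 0.0476). The lactate transporter gene Slc16a1 had 14699, 9857, 11770.5 and 10364 in the mutants, against 15316, 33536, 21224 and 20453 in the controls. Tdh, a threonine dehydrogenase gene, had 570.4, 128, 135 and 210.2 in the mutants, against 585, 2583, 1502 and 1295 in the controls (-2.61 ± 0.48, adjusted p = 0.0116). Control 29 was the highest embryo for all 3 genes. In the serine pathway, Phgdh averaged 4643 ± 374 in the mutants and 6427 ± 791 in the controls and Psat1 6762 ± 803 in the mutants and 9049 ± 1052 in the controls (SD, n = 4 each). With the yolk sac level as a term the values were -0.15, adjusted p = 0.904 for Slc2a1, -0.20, adjusted p = 0.814 for Slc16a1, -0.61, adjusted p = 0.502 for Tdh and -0.18, adjusted p = 0.72 for Phgdh. The list of integrated stress response and amino acid genes had 26 tested members, of which 1 rose and 3 fell. The riser was Ddit4, an inhibitor gene of mTORC1 signalling, with 2646, 3824, 4742 and 5863 in the mutants, against 2146, 2213, 1601 and 1541 in the controls (1.15 ± 0.21, adjusted p = 0.0102).

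Among genes of heart muscle, several contractile and electrical genes were higher in the mutants. Which cells of the dissected region their RNA came from was not tested. Cacna1h, the gene of a T-type calcium channel of the embryonic heart (chromosome 17, 25374285 to 25433783, minus strand), had 1880.4, 2003, 1531 and 1799 normalised reads in the mutants, against 411, 422, 460.00 and 527 in the controls (log2 fold change 1.98 ± 0.14, adjusted p = 1.78e-05). Gja5, which encodes connexin 40, a gap junction protein of atria and trabeculae, had 1142, 839, 969 and 975 in the mutants, against 207, 66.98, 191 and 246 in the controls (2.60 ± 0.34, adjusted p = 0.0015). All mutants were far above all controls for both genes. Kcnh2, a repolarising potassium channel gene, had 3817, 3588, 3382 and 3872 in the mutants, against 1959, 1683, 2457 and 2488 in the controls, and Hrc, a calcium-binding protein gene of the sarcoplasmic reticulum, had 1883, 1526, 1137 and 1748 in the mutants, against 958, 761, 944 and 842 in the controls. Cacna1g, the other T-type channel gene of the early heart, went the other way and had 761, 760.1, 1039.9 and 757 in the mutants, against 2056, 1649.6, 1419 and 1349 in the controls (-0.96 ± 0.16, adjusted p = 0.00768). Of 26 tested genes of calcium handling, channels and connexins, 4 rose and 1 fell (median 0.24). Of these calls, 4 of the 5 held in every fit that left out 1 embryo, and 2 with the yolk sac level as a term.

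Of 33 tested sarcomere and contractile genes 4 rose and none fell, 29 of the 33 fold changes were positive, and their median was 0.31. Tnnt1, the slow skeletal troponin T gene, had 814, 1259, 621 and 1084 normalised reads in the mutants, against 208, 105, 204 and 212 in the controls (log2 fold change 2.37 ± 0.29, adjusted p = 0.000954). Myl3, a ventricular light chain gene, had 4916, 4557, 3084 and 4589 in the mutants, against 2372, 1549, 2843 and 2365 in the controls, and Tnni3, the adult cardiac troponin I gene, 1189.8, 898, 801 and 1236 in the mutants, against 505, 226, 540.3 and 638 in the controls. Des, the gene of the intermediate filament desmin, had 5366, 5047, 4511 and 5441 in the mutants, against 3095, 2046, 4287 and 3296 in the controls (0.72 ± 0.17, adjusted p = 0.0391). In each of the 4 genes the mutants were all above the controls, and control 29, with the highest yolk sac sum, was the lowest embryo. Groups without overlap were found at 502 of all 537 called genes. Of these calls, 1 of the 4 held in every fit that left out 1 embryo, and 0 with the yolk sac level as a term. With edgeR's quasi-likelihood test 2 of the 33 genes were called.

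Lbh, a cofactor gene of ventricle and limb bud, rose and had 5839.9, 5228, 4059 and 5092 normalised reads in the mutants, against 2269, 1974, 3272 and 2550.1 in the controls (log2 fold change 1.02 ± 0.15, adjusted p = 0.00307). Ankrd1, a stretch-responsive gene of heart muscle, fell and had 4785, 4538, 3394 and 4133 in the mutants, against 6958, 7135, 8664 and 8491 in the controls (-0.90 ± 0.11, adjusted p = 0.00109). They were the called members among 9 tested chamber genes. None of 30 cardiac transcription factor genes passed the test, and 7 of them had an unadjusted p under 0.05. On the recovered whole reads, edgeR and limma-voom called none of the 30, and DESeq2 called 3, of which 1 rose and 2 fell. The smallest unadjusted p of the list in the main limma fit was at Tbx18 (0.65 ± 0.21, adjusted p = 0.13). Leaving out 1 embryo gave 0 to 1 genes of the list that rose and 0 to 1 that fell. With the yolk sac level as a term 1 rose and 1 fell. The small heat shock protein genes Hspb1 and Hspb7, active in muscle cells, rose. Hspb1 had 2811, 2473, 1919 and 2209.9 in the mutants, against 584, 547, 787 and 399 in the controls (2.05 ± 0.19, adjusted p = 0.000141), and Hspb7 4831, 4546, 3484 and 4541 in the mutants, against 2529, 2425, 3484 and 3432 in the controls, with mutant 41 and control 35 at about the same level. 2 other chaperone genes fell, namely Hspa5, the endoplasmic reticulum chaperone BiP (-0.36 ± 0.06, adjusted p = 0.00825), and Hsph1 (-0.37 ± 0.08, adjusted p = 0.0279).

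**Figure D3:**
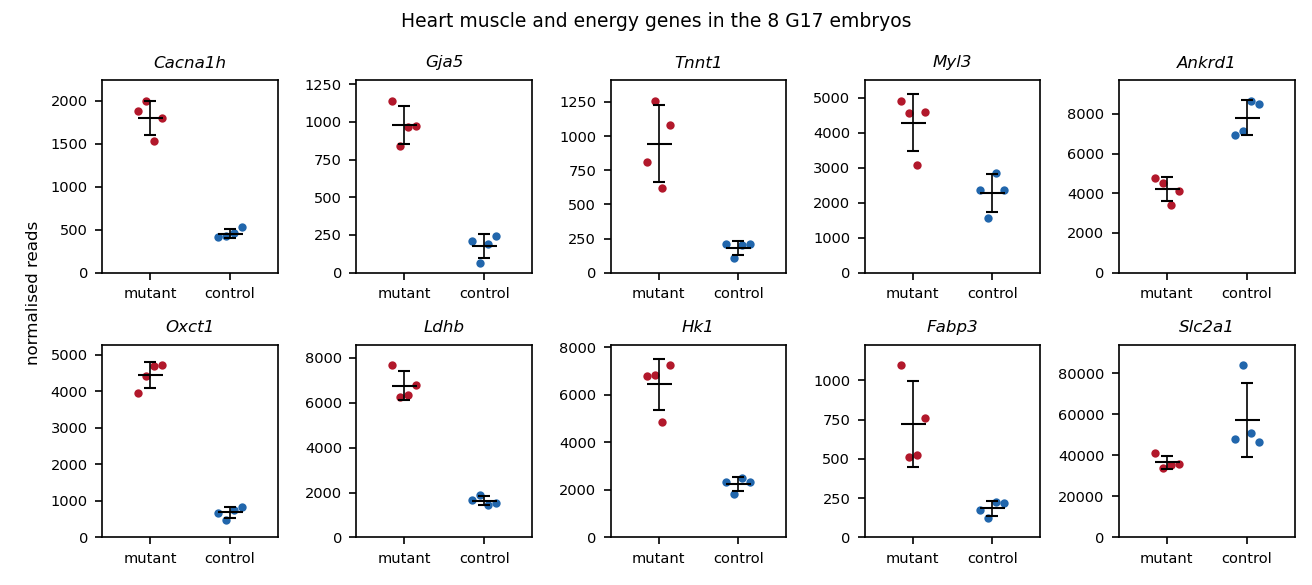
Normalised reads of 10 heart muscle and energy genes, with 1 point for each embryo (4 mutants in red on the left, 4 controls in blue on the right of each panel) and bars for the mean and SD. Cacna1h, Gja5, Tnnt1, Myl3, Oxct1, Ldhb, Hk1 and Fabp3 are higher in all mutants than in all controls, and Ankrd1 and Slc2a1 lower.

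Several genes for the use of ketones and fatty acids rose, as did the gene of an isoform of lactate dehydrogenase. Oxct1, the enzyme gene that lets cells use ketone bodies (chromosome 15, 4026383 to 4155344, plus strand), had 3951, 4426, 4693 and 4712 normalised reads in the mutants, against 674, 471, 742 and 846 in the controls (log2 fold change 2.73 ± 0.16, adjusted p = 1.61e-06). Fabp3, the heart fatty acid binding protein gene, had 1095, 512, 524 and 761 in the mutants, against 174, 124, 224 and 217 in the controls. The beta-oxidation genes Eci1 (675, 1300.2, 1280.2 and 946 in the mutants, against 186, 324, 307 and 272 in the controls) and Acadl (1684, 1607, 1449 and 1428 in the mutants, against 562, 964, 763 and 679 in the controls) rose. Etfa, which passes electrons from that pathway to the respiratory chain, had 3056, 2140.1, 2497 and 2123 in the mutants, against 968, 1454, 1139 and 1327 in the controls. Hadhb, of the trifunctional protein, had 1162, 1074, 1217 and 1108 in the mutants, against 462, 701, 716 and 762 in the controls. In total 6 of 30 tested genes of this list rose and 1 fell, with a median of 0.20. The gene that fell was Cd36, which encodes a fatty acid uptake receptor also found on endothelium and visceral endoderm, with 471, 128, 184 and 199.7 in the mutants, against 667, 728, 455 and 678 in the controls. Of these calls, 5 of the 7 held in every fit that left out 1 embryo, and 4 with the yolk sac level as a term.

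Ldhb, which encodes the lactate dehydrogenase subunit of oxidative tissues, had 7663, 6243, 6340.02 and 6806 normalised reads in the mutants, against 1672, 1896, 1435 and 1555 in the controls (log2 fold change 2.05 ± 0.10, adjusted p = 4.22e-07). Hk1, the gene of hexokinase 1, had 6799, 6837, 4852 and 7229 in the mutants, against 2326, 1831, 2479 and 2339 in the controls (1.51 ± 0.13, adjusted p = 6.92e-05). They were the risers among 32 tested glycolysis and hypoxia genes, and the 2 transporters named above fell (median 0.03). Pgm1, the gene of phosphoglucomutase in glycogen turnover, lies outside that list and had 6580.4, 8679.99, 6993 and 7853 in the mutants, against 2902, 3636, 3459.7 and 3142 in the controls (1.19 ± 0.10, adjusted p = 5.98e-05). In the respiratory chain 1 of 51 tested genes was called. This was Atp5b, of the ATP synthase, with 57409, 55867, 56810.5 and 56781 in the mutants, against 49099.6, 50256, 50147 and 48636 in the controls, a log2 fold change of 0.20 ± 0.04. Of the calls in the glycolysis list, 2 of the 4 held in every fit that left out 1 embryo, and 2 with the yolk sac level as a term.

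Several sterol synthesis genes rose by less than 2-fold. Of 25 tested members 7 rose and none fell, 24 of the 25 fold changes were positive, and the median was 0.38. Hmgcs1, which makes the precursor of mevalonate (chromosome 13, 119690379 to 119708260, plus strand), had 10020.3, 9432, 8640.4 and 9952 normalised reads in the mutants, against 5276, 3804, 5464 and 5916 in the controls (log2 fold change 0.91 ± 0.12, adjusted p = 0.00127). Cyp51, the lanosterol demethylase gene, had 4569, 3796, 3659.5 and 4352 in the mutants, against 2728, 2044, 2311 and 2733 in the controls, and Lss, the lanosterol synthase gene, 2462, 2251, 2042 and 2381 in the mutants, against 1665, 1406, 1336 and 1587 in the controls. Insig1, a sterol-sensing brake on the pathway, had 1962, 1440.3, 1725 and 2113 in the mutants, against 967, 1189, 819 and 1217 in the controls. Msmo1 (0.69 ± 0.15, adjusted p = 0.0298) and Idi1 (0.79 ± 0.18, adjusted p = 0.0328), both enzyme genes of the pathway, rose as well. For each of the 7 all mutants were above all controls, and the groups were likewise apart at 502 of all 537 called genes. Scd2, a fatty acid desaturase gene outside the list, had 47973, 41595, 44731 and 44269 in the mutants, against 32329.9, 25283, 29542 and 31425 in the controls (0.60 ± 0.08, adjusted p = 0.0012). Of the list's calls, 4 of the 7 held in every fit that left out 1 embryo, and 2 with the yolk sac level as a term. Both settings kept the median positive, at 0.47 with that term.

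The promoter of Hmgcs1 is shown because it holds the letters of a sterol regulatory element (TCACNCCAC, either strand, in capitals), which starts 137 bases before the transcription start. The windows run from 250 bases before to 50 after the start and are RefSeq's, in GRCm38.p6, 5′ to 3′ on the gene's strand. The same letters were found in 1 of 17 matched sterol genes (5.88%) and in 1.44% of all 27025 genes with a window, and not in those of Cyp51, Lss, Insig1, Msmo1 or Idi1. This window is chr13:119690101-119690400, plus strand.
Hmgcs1: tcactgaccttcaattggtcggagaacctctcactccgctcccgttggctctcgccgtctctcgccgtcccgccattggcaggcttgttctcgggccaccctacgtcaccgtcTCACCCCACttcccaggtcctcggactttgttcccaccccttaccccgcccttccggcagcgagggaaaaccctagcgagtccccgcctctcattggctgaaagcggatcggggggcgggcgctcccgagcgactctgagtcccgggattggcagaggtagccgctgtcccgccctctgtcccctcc

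Some genes for making ribosomes fell by small amounts. Of 67 tested ribosome biogenesis and nucleolar genes 10 fell and none rose, and 59 of the 67 fold changes were negative, with a median of -0.20. Ddx21, a nucleolar RNA helicase gene, had 12437, 12220.5, 13469 and 11965 normalised reads in the mutants, against 18777, 15359, 17521 and 18436 in the controls (log2 fold change -0.48 ± 0.07, adjusted p = 0.00369). Nolc1, which encodes a carrier protein of the nucleolus, had 13259, 13629, 14081 and 12708 in the mutants, against 16687, 16618, 17039 and 17368 in the controls (-0.34 ± 0.06, adjusted p = 0.00663). Ncl, the gene of nucleolin, had 86077, 96583, 101612 and 94241 in the mutants, against 119047, 102454, 116730.00 and 121343 in the controls. Bop1 (-0.45 ± 0.09), Nop2 (-0.46 ± 0.09), Pno1 (-0.43 ± 0.10) and Mybbp1a (-0.23 ± 0.05) fell as well, with no overlap of the groups. Most called genes of any kind (502 of 537) had no overlap either. Of these calls, 2 of the 10 held in every fit that left out 1 embryo, and 2 with the yolk sac level as a term; leaving out an embryo moved the number that fell between 2 and 13. None of 76 cytosolic ribosomal protein genes was called by limma, and none by edgeR, DESeq2 or limma-voom, nor had any an unadjusted p under 0.05 (median -0.02). Limma fits that left out 1 embryo called none either, and with the yolk sac level as a term 1 fell.

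Myc, whose product drives ribosome biogenesis genes through the E-box, had 1689, 2311, 1534 and 1417 normalised reads in the mutants, against 3166, 3195, 2513 and 2356 in the controls (log2 fold change -0.70 ± 0.15, adjusted p = 0.0284). Mxi1, the gene of a MYC antagonist, had 1295, 1746, 1282 and 1956 in the mutants, against 943, 932, 787 and 789 in the controls, and Mlxipl, of a glucose-responsive factor that binds E-box pairs, 263, 284, 239 and 244 in the mutants, against 88.1, 109, 109.5 and 90.2 in the controls. These were 2 risers and 1 faller among 13 tested genes of the MYC, MAX and MLX network. Of these calls, 0 of the 3 held in every fit that left out 1 embryo, and 0 with the yolk sac level as a term. The E-box letters CACGTG, which read the same on both strands, were found in the promoter windows of 16 of 58 matched ribosome biogenesis genes (27.6%). They were found in 8.09% of all genes with a window. Among the genes that fell, 3 of 9 matched held it, and among the others 13 of 49. The windows of the 3 that fell are printed with the E-box in capitals, for chr6:125131633-125131932 (Nop2, plus strand), chr11:72441077-72441376 (Mybbp1a, plus strand) and chr11:17211540-17211839 (Pno1, minus strand). The E-box starts 60 bases before the start of Nop2, and at base 41 of Mybbp1a and base 38 of Pno1 after it.
Nop2: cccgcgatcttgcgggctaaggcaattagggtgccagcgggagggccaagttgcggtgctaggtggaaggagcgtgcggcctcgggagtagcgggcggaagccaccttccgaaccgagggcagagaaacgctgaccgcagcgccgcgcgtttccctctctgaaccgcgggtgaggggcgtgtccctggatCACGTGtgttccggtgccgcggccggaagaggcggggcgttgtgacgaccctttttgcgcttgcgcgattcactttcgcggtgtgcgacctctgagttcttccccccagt
Mybbp1a: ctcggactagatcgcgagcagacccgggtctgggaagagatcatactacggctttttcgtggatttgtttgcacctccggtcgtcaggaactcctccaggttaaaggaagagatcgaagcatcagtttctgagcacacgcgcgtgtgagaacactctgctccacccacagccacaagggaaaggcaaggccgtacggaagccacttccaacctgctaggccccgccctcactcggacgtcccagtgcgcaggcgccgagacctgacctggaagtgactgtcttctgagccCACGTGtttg
Pno1: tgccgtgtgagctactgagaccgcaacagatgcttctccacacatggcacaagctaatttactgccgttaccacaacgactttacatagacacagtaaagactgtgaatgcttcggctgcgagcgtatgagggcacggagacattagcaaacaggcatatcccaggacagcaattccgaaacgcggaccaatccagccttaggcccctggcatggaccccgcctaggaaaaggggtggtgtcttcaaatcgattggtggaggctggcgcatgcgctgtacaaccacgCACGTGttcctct

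**Figure D4:**
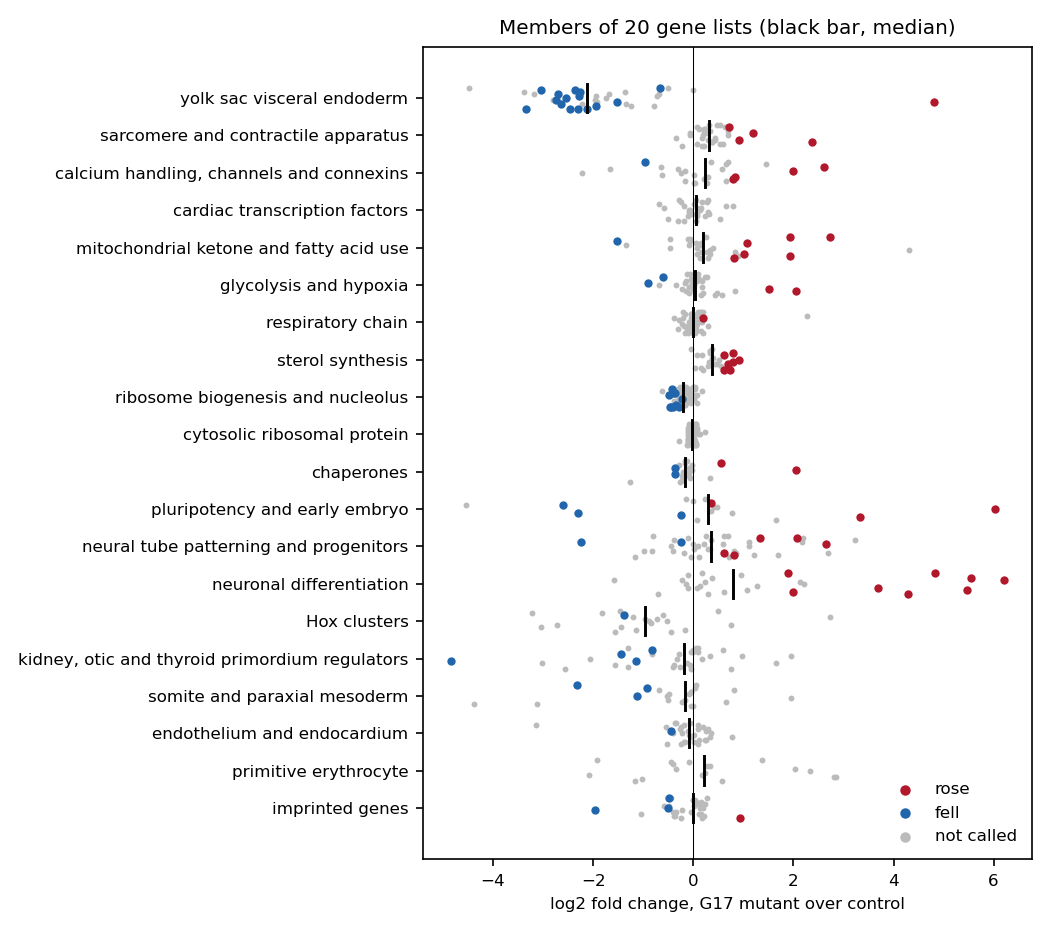
Log2 fold changes, G17 mutant over control, of the tested members of 20 gene lists, with called genes in red (rose) or blue (fell), others in grey and a black bar at each list's median. The yolk sac list lies left of 0 (median -2.12), the sterol list right of it (0.38) and the ribosome biogenesis list slightly left (-0.20).

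Some genes of early embryo and neural progenitor cells rose, to different degrees in each mutant. Other early embryo genes fell, as given below. Pou5f1, which encodes the pluripotency factor OCT4 (chromosome 17, 35506018 to 35510772, plus strand), had 1132, 3403, 3689 and 2603 normalised reads in the mutants, against 256, 308, 138 and 323 in the controls (log2 fold change 3.34 ± 0.35, adjusted p = 0.000332). Nanog had 31.4, 318, 372 and 132 in the mutants, against 1.06, 1.91, 3.65 and 0 in the controls. Its controls held at most 3 reads each, so the fitted log2 fold change depends on the pseudocount, at 6.03 with 1, 7.27 with 0.1 and 4.59 with 5. Wnt8a, a ligand gene of the primitive streak and hindbrain, had 957, 3080.2, 3131 and 2086 in the mutants, against 407, 238, 175 and 604 in the controls. Olig3, a factor gene of dorsal neural progenitors, had 612, 2982, 2629.9 and 1771 in the mutants, against 213, 73.7, 87.6 and 258 in the controls (3.63 ± 0.49, adjusted p = 0.00197). For each of these 4 genes mutants 36 and 41 were the 2 highest embryos and mutant 33 the lowest mutant. Mutants 36 and 41 had the lowest yolk sac sums of the 8 embryos, and mutant 33 the highest of the mutants. With the mean log2 level of the yolk sac markers as a term the change was 2.58, adjusted p = 0.023 for Pou5f1 and 1.85, adjusted p = 0.089 for Olig3.

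Of 16 tested pluripotency and early embryo genes 3 rose and 3 fell. Sall4, of the same factor network, had 10339, 12323, 11846 and 10973 in the mutants, against 9609, 9753, 7822 and 8439 in the controls. Lin28a, an RNA-binding protein gene of progenitor cells, fell, with 29155, 31106, 34269.9 and 31564 in the mutants, against 38863, 36149.5, 36079 and 38102 in the controls. Tfcp2l1, a factor gene of naive embryonic cells and of epithelia, had 414, 59.4, 144 and 245 in the mutants, against 428, 1489, 839.7 and 968 in the controls, with control 29 highest as for the yolk sac genes. Tdgf1, the co-receptor of NODAL, was at the edge of the test (1.65 ± 0.41, adjusted p = 0.0502). Of the 18 tested primitive streak and caudal progenitor genes none rose, and Sp5, a WNT target (416, 479.8, 423 and 302 in the mutants, against 759, 859, 694 and 814 in the controls), and Lfng (425, 343, 371 and 389 in the mutants, against 825, 553, 717 and 843 in the controls) fell. Of the calls in the pluripotency list, 2 of the 6 held in every fit that left out 1 embryo, and 2 with the yolk sac level as a term. Nanog was below the filter, and so not tested, when a mutant was left out. It was called in the 4 fits that left out a control.

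Several neuronal genes of low level rose. Of 26 tested neuronal differentiation genes 8 rose and none fell, with a median of 0.79. Bcl11a, a zinc finger factor gene of neurons, had 303, 213, 294 and 469 normalised reads in the mutants, against 0, 23.9, 10.95 and 0 in the controls, and its relative Bcl11b 225, 329, 246 and 338 in the mutants, against 13.8, 31.6, 31.6 and 13.04 in the controls. Map2, a microtubule protein gene of neurons, had 780.3, 876, 766 and 500.2 in the mutants, against 316, 95.7, 176 and 251 in the controls (1.90 ± 0.34, adjusted p = 0.00984). Prdm12 (227, 257, 182 and 247 in the mutants, against 0, 0, 8.52 and 56.5 in the controls), a factor gene of sensory neurons, and Cdk5r2 (139, 281, 316 and 265 in the mutants, against 24.4, 0, 32.9 and 0 in the controls), an activator gene of the neuronal kinase CDK5, rose too. So did Bmerb1 and Elavl3, a neuronal RNA-binding protein gene. In all 8 genes the mutants were above the controls, and such a lack of overlap was found at 502 of all 537 called genes. At controls near 0 the size of a fold change is set by the pseudocount, and for Bcl11a it was 7.91 with 0.1 and 4.91 with 5. Of these calls, 3 of the 8 held in every fit that left out 1 embryo, and 2 with the yolk sac level as a term, and limma-voom called 2 of the 26.

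Of 40 tested genes of neural tube patterning and progenitors 5 rose and 2 fell (median 0.35). Among the risers were Zic5 (1000.3, 1451, 1502 and 1655 in the mutants, against 629.7, 732, 406 and 486 in the controls), Fabp7 (269, 404, 467 and 387 in the mutants, against 76.5, 67.9, 83.97 and 136 in the controls), Sox1 (3172, 4108, 4723 and 4183 in the mutants, against 3114, 2014, 2004 and 2136 in the controls) and Nes (8153, 7759, 8043 and 8834 in the mutants, against 6314, 3624, 6016 and 5929 in the controls). These are genes of neural progenitors. The fallers were Lin28a and Wnt1, a ligand gene of the dorsal midline and midbrain, with 44.4, 51.04, 24.02 and 81.6 in the mutants, against 345, 184, 133 and 287 in the controls (-2.24 ± 0.48, adjusted p = 0.0263). The 4 defining neural tube markers (Sox1, Sox2, Pax6 and Otx2) summed to 8267, 9713, 10953 and 9974 normalised reads in the mutants, against 9530, 7277, 6492 and 8298 in the controls. These ranges overlap, and the part of neural tissue in the neuronal results was not tested. The list's median was -0.19 with the yolk sac level as a term. Of its calls, 3 of the 7 held in every fit that left out 1 embryo, and 1 with the yolk sac level as a term.

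Some regulators of the kidney and ear primordia fell. Pax8, a paired-box gene of the early kidney, ear and thyroid (chromosome 2, 24420560 to 24475599, minus strand), had 0, 24.1, 99.5 and 24.00 normalised reads in the mutants, against 703, 156, 608 and 642 in the controls. Mutant 33 had no read of it, and control 29 was the lowest control. Ret, a receptor gene of kidney and enteric neuron development, had 254, 628, 308 and 498 in the mutants, against 1844, 569, 1317 and 989.8 in the controls, with mutant 36 above control 29. Pax2, which acts with Pax8, had 73.03, 199.5, 350.1 and 129 in the mutants, against 763, 303, 522 and 416 in the controls and did not pass the test (-1.56 ± 0.43, adjusted p = 0.0797). Spry1, a feedback inhibitor gene of RET and FGF signalling, had 491, 649, 870.05 and 854 in the mutants, against 1255, 1054, 1509 and 1189.7 in the controls. Of 32 tested members of this list 4 fell and none rose (median -0.19). Of these calls, 0 of the 4 held in every fit that left out 1 embryo, and 2 with the yolk sac level as a term. The number that fell was between 0 and 6 when 1 embryo was left out, and 0 without mutant 42 or control 37. Without the yolk sac level as a term, the log2 fold change of Pax8 was -4.85 (limma, adjusted p = 0.033). With the yolk sac level as a term, Pax8 was at -8.42, adjusted p = 0.00379 and Ret at -2.59, adjusted p = 0.00454. Mutant 33 had no read of Pax8, so the size of either Pax8 value depends on the pseudocount. The larger value also depends on a term that moves with the groups.

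A few somite genes fell, and the calls depended on single embryos. Of 21 tested members 3 fell and none rose (median -0.16). Of these calls, 0 of the 3 held in every fit that left out 1 embryo, and 0 with the yolk sac level as a term. The number that fell was between 0 and 4 when 1 embryo was left out, and 0 without mutant 36, mutant 41 or control 37. Tcf15, a factor gene that makes somites epithelial, had 557, 257, 369.8 and 489 normalised reads in the mutants, against 1122, 929, 723 and 784 in the controls (log2 fold change -1.13 ± 0.24, adjusted p = 0.0259). Dmrt2, of the same tissue, had 97.1, 23.2, 61.8 and 23.04 in the mutants, against 243, 301, 151 and 196 in the controls. Lfng, given above, modifies Notch receptors. The 4 defining somite markers summed to 2917 to 5440 in the mutants and 4121 to 8389 in the controls, which overlap, and their part in these results was not tested. Hoxb3, of the anterior-posterior patterning clusters, had 207, 175, 175 and 301 in the mutants, against 531, 615, 498 and 541 in the controls (-1.38 ± 0.24, adjusted p = 0.00825). It was the sole call among 21 tested Hox genes, of which 18 had negative fold changes (median -0.96, and -0.19 with the yolk sac level as a term).

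Genes of the foregut, the surface ectoderm and other neighbouring tissues were called in both directions. Dsp, which encodes desmoplakin of cell junctions (chromosome 13, 38151294 to 38198577, plus strand), had 27274, 21312, 21726 and 21412 normalised reads in the mutants, against 9654, 14033, 10453 and 9677 in the controls (log2 fold change 1.08 ± 0.12, adjusted p = 0.000419), and Epcam, an epithelial adhesion gene, 4494, 4523, 4421 and 4136 in the mutants, against 2600.4, 3427, 2748 and 3209.6 in the controls. They were the risers among 28 tested surface ectoderm and epithelial genes, of which 20 had negative fold changes. Dsp is also active in heart muscle. Of 26 tested foregut endoderm genes 1 rose and 3 fell (median -0.29). The riser was Epcam, and among the fallers were Hnf4a, given with the yolk sac genes, and Pyy, a gut peptide hormone gene, with 188, 173, 189 and 201 in the mutants, against 450.2, 802, 383 and 354 in the controls (-1.33 ± 0.28, adjusted p = 0.0228). Of these calls, 1 of the 4 held in every fit that left out 1 embryo, and 1 with the yolk sac level as a term. In the endothelium and endocardium list 1 of 32 genes was called, namely Hapln1, a hyaluronan link protein gene of the cardiac jelly, with 7341, 7977, 7039 and 9410.00 in the mutants, against 10417, 10338, 11689.8 and 10701 in the controls. None of 18 primitive erythrocyte genes and none of 14 proepicardium genes was called in the main limma fit. Erythrocyte genes with an unadjusted p under 0.05 numbered 1, and proepicardium genes 8. DESeq2 called 1 proepicardium gene, while edgeR and limma-voom called none in either list. Limma fits that left out 1 embryo called 0 to 2 proepicardium genes as falling. The limma fit with the yolk sac level as a term called 1 as rising (median 0.63, against -0.26 without the term). No erythrocyte gene was called in those limma fits. In the neural crest list 1 of 27 rose and 1 fell. Alx4, a homeobox gene of craniofacial and limb mesenchyme, had 1254, 1885, 1448 and 1524 in the mutants, against 590.4, 486, 469 and 464 in the controls (1.59 ± 0.16, adjusted p = 0.000226). Msx1, a target gene of BMP in mesenchyme, had 1242, 1089.5, 843 and 994 in the mutants, against 1918, 2767, 1809.6 and 1268 in the controls. In the second heart field list 2 of 34 rose. Cxcl12, which encodes a chemokine that guides migrating cells, had 3141, 3585, 4029 and 3543 in the mutants, against 848, 1465, 1213 and 659.5 in the controls (1.83 ± 0.20, adjusted p = 0.000477). Dach1, a nuclear cofactor gene, had 3453, 3069.97, 3194 and 3874 in the mutants, against 2611, 1789, 2277 and 2005 in the controls.

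Signalling lists moved in part. Among 34 tested WNT ligand and target genes 2 rose and 3 fell. Rspo1, which encodes a secreted enhancer of WNT signalling, had 835, 672, 693 and 809 normalised reads in the mutants, against 223, 275, 211 and 253 in the controls (log2 fold change 1.64 ± 0.19, adjusted p = 0.000752), and Wnt8a rose as given above. Nkd1, a target and inhibitor of the pathway, had 1548, 1794, 1629 and 1531 in the mutants, against 2106, 2162, 2203 and 2428 in the controls, and Sp5 and Wnt1 fell as well. Of 28 genes of the FGF and ERK response 3 fell and none rose. Dusp5, a phosphatase gene induced by ERK, had 827, 809, 844 and 983 in the mutants, against 1309, 1300.3, 1217 and 1399 in the controls, and Phlda1 1782, 1401, 1420.05 and 1501 in the mutants, against 2050.4, 2094, 2279 and 2250.2 in the controls. Of 24 immediate early genes 3 fell and 1 rose. Egr1, a growth factor response gene, had 63.8, 102, 66.9 and 14.4 in the mutants, against 252, 343, 262 and 230.3 in the controls (-2.39 ± 0.54, adjusted p = 0.0318), and Klf10 707, 608, 809.99 and 763 in the mutants, against 1015, 1189, 1036 and 1139.8 in the controls. Jund, of the AP-1 family, rose and had 2454, 2320.1, 1925 and 2662 in the mutants, against 1374, 1518, 1202 and 1209 in the controls (0.82 ± 0.13, adjusted p = 0.00407). Of the calls in the FGF and ERK list, 0 of the 3 held in every fit that left out 1 embryo, and 0 with the yolk sac level as a term.

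In the BMP and TGF-beta list 2 of 30 genes rose and 1 fell. Msx1, given above, was the gene that fell, and the risers encode extracellular or membrane modulators. Ltbp1, of the latent TGF-beta complex, had 3295, 3334, 3188 and 3280.3 normalised reads in the mutants, against 2031, 2213, 2330.4 and 2473 in the controls. Bambi, a decoy receptor gene, had 3073, 2271, 1762 and 2773 in the mutants, against 1388, 1613, 1597 and 1598 in the controls. The Notch list had 20 tested genes. Notch1 rose, with 4938, 4036, 3774 and 5339 in the mutants, against 3033, 2489, 2489 and 2390.3 in the controls (0.79 ± 0.12, adjusted p = 0.00399), and Lfng fell. Boc, a hedgehog co-receptor gene, had 2156, 2821, 2969 and 2486 in the mutants, against 1669, 1742, 1339 and 2004 in the controls and was the sole call of 18. Of 24 tested retinoic acid genes 1 rose and none fell, and 19 had negative fold changes (median -0.05). The call held in every fit that left out 1 embryo and with the yolk sac level as a term.

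Guidance genes that steer axons, vessels and migrating cells moved in both directions. Of 60 tested semaphorin, ephrin and SLIT genes 7 rose and 2 fell (median 0.07). Efnb3, a membrane ephrin ligand gene, had 4957, 3983, 4235 and 5221 normalised reads in the mutants, against 2643, 2494, 2074 and 2513 in the controls (log2 fold change 0.92 ± 0.11, adjusted p = 0.000866). Robo1, a SLIT receptor gene, had 6279.9, 5593, 6336 and 7071 in the mutants, against 4726, 4868, 4303 and 4175 in the controls. Epha4, an ephrin receptor gene of hindbrain and neural tube, had 4245, 10136, 8977 and 6801 in the mutants, against 3607, 2045, 3540.03 and 4434 in the controls. Mutants 36 and 41 were the highest embryos, and mutant 33 was below control 37. Slit1, a ligand gene of ROBO receptors, fell and had 172, 329, 509 and 529.9 in the mutants, against 1077, 799, 904 and 741 in the controls. Cntn2, an axonal adhesion gene outside the list, averaged 367 ± 85.2 in the mutants and 41.3 ± 9.93 in the controls (SD, n = 4 each; 3.11 ± 0.37, adjusted p = 0.000881). Of the list's calls, 2 of the 9 held in every fit that left out 1 embryo, and 2 with the yolk sac level as a term.

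Imprinted genes, of which only the maternal or the paternal copy is active, were called in both directions. Of 31 imprinted genes 1 rose and 3 fell. Plagl1, an imprinted zinc finger gene that restrains proliferation, had 15788, 13254, 11008 and 15302 normalised reads in the mutants, against 6404, 6503, 8845 and 7224 in the controls (log2 fold change 0.93 ± 0.12, adjusted p = 0.00144). Phlda2, an imprinted growth-restraining gene of placenta and yolk sac, had 1201, 599, 656 and 665 in the mutants, against 1861, 5163, 2894 and 2554 in the controls (-1.95 ± 0.28, adjusted p = 0.00285). Mest had 38926, 38473, 34244 and 44552 in the mutants, against 52252, 54106, 55508 and 56777 in the controls. H19, a long non-coding RNA gene of mesoderm and endoderm, had 174556, 166990.00, 139213 and 169425 in the mutants, against 177987, 289044, 242665 and 218155 in the controls, and its change was -0.10, adjusted p = 0.911 with the yolk sac level as a term. Few cell cycle genes were called, and those called rose. The shares called were 4% in the mitosis and 6.45% in the DNA replication list, against 3.03% of all genes tested. In the mitosis list 1 of 25 genes rose, the checkpoint kinase gene Bub1b (0.27 ± 0.07, adjusted p = 0.0466). Of 31 DNA replication genes 2 rose, Rrm1, a subunit gene of ribonucleotide reductase (0.41 ± 0.07, adjusted p = 0.00568), and E2f1 (0.47 ± 0.12, adjusted p = 0.0456). Of 28 genes of cyclins, CDK inhibitors and p53 targets 3 rose (10.7%), namely Ddit4, Plk3, a stress-responsive kinase gene (1.52 ± 0.36, adjusted p = 0.04), and Aifm2, which encodes a suppressor of ferroptosis. Aifm2 had 282, 302, 195 and 181 in the mutants, against 0, 77.5, 27.99 and 0 in the controls. In every fit that left out 1 embryo 0 of 1 mitosis, 1 of 2 DNA replication and 1 of 3 cyclin list calls held. With the yolk sac level as a term 0 calls held in each of these lists. Of 42 collagen and laminin genes 1 was called (2.38%), namely Col5a1, of fibril assembly, which fell (-0.45 ± 0.08, adjusted p = 0.00918). In that list 24 fold changes were positive and 18 negative (median 0.05). With the yolk sac level as a term 4 members rose and none fell, and Col5a1 was at -0.27, adjusted p = 0.404.

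The directions in G17 were set beside those in line G3, whose embryos and controls are separate. Of the 532 G17 calls that were also tested in G3, 517 had the same sign there (97.2%), as had 64.3% of all 17108 genes tested in both lines. This direction rests on the G3 labels. The G3 libraries labelled mutant had more Greb1l RNA than their controls, and the labels themselves were not tested. With those labels turned, 15 of the 532 (2.82%) would have the same sign. In G3 717 genes were called, 3.98% of 18025 tested. The genes called in both lines numbered 239, which is 44.5% of the G17 calls and 33.3% of the G3 calls. They included 191 that rose in both and 47 that fell in both. Cacna1h was at 1.98 ± 0.14 in G17 and 2.09 ± 0.18, adjusted p = 6.33e-05 in G3. Ldhb was at 2.05 ± 0.10 in G17 and 1.89 ± 0.09, adjusted p = 1.65e-07 in G3. Tnnt1, Egr1 and Jund, called in G17, were at 0.47 ± 0.22, adjusted p = 0.276 (Tnnt1), 0.03 ± 0.36, adjusted p = 0.978 (Egr1) and 0.16 ± 0.15, adjusted p = 0.624 (Jund) in G3.

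The difference between the lines was tested as an interaction over all 16 embryos and 20010 genes, and 2 genes passed (0.01%). The fold change of Greb1l was lower in G17 than in G3, by -2.11 ± 0.19 on the log2 scale (adjusted p = 9.24e-06), since it rose in the G3 libraries labelled mutant (0.87 ± 0.11, adjusted p = 0.000824). By the labels, Oxct1 rose in both lines and more in G17, with a difference of 1.57 ± 0.20 (adjusted p = 0.00196; 1.16 ± 0.12, adjusted p = 0.000143 in G3). With the G3 labels turned, the difference would be -0.38 for Greb1l and 3.89 for Oxct1 (values with no test). For no other gene was a difference between the lines shown. An unadjusted p under 0.05 was found at 6.37% of the genes.

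**Figure D5:**
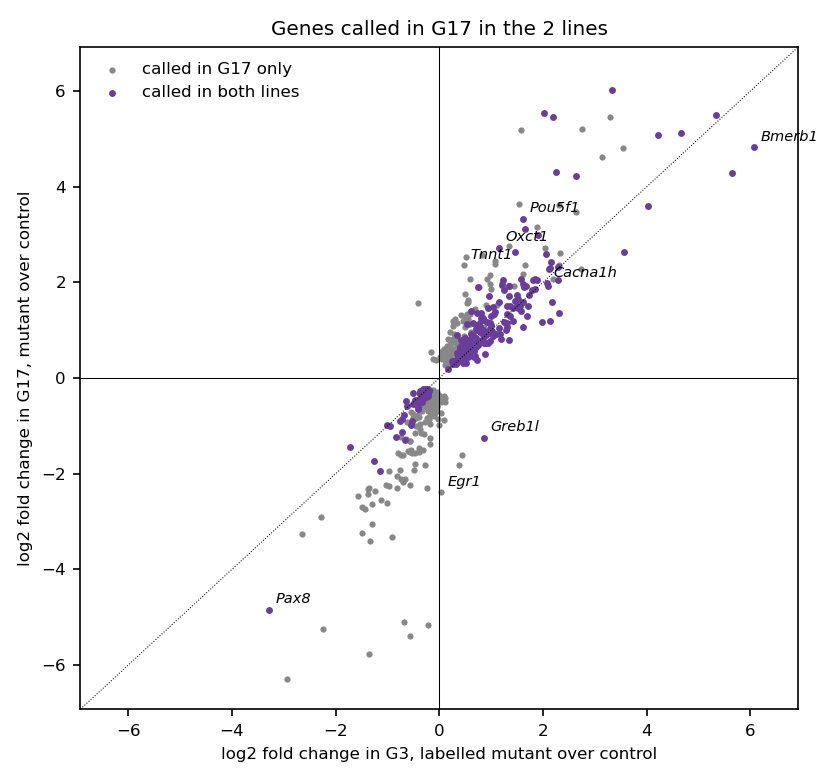
Log2 fold changes of genes called in G17, with line G3 (labelled mutant over control) on the x axis and line G17 (mutant over control) on the y axis; purple genes were called in both lines and the dotted line marks equal values. Of 532 genes 517 have the same sign in both, and Greb1l lies apart, lower in G17 mutants and higher in the G3 libraries labelled mutant.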

How the data were processed

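Per the labels' protocols, RNA of the microdissected cardiac region was extracted from single embryos with TRIzol and column purification, had integrity numbers above 9 and was read from both ends of each fragment for 100 bases. HISAT2, featureCounts of Subread, DESeq2 and genome build GRCm38 are named in the submitters' processing notes. Tool versions and strand marking are not given in the sources, so reads of overlapping genes on opposite strands may not have been told apart. For each line a table of 48526 genes was deposited. Its embryo columns are a normalized signal made by the authors, namely reads divided by a DESeq2 size factor, per the file headers. At least 99.9% of an embryo's values gave whole reads within a tolerance of 0.01, so whole reads were recovered; embryo columns left unused numbered 0. The deposited tables also give, for each gene, raw and adjusted p-values as computed by the authors. Depth is the sum of recovered reads; a count of 0 allows 3 reads, or 2.57 to 3.65 normalised reads by embryo, which covers counting error only. No 2 of the 120 pairs of libraries agreed within sampling noise.

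Groups came from the labels, 4 embryos each. Nothing but the embryo numbers separates replicates, so p-values measure the spread between embryos of unknown litters. In R 4.3.3, limma 3.58.1 with a mean-variance trend was fitted to log2(value + 1) of the 8 G17 embryos, for genes reaching 10 in 4 or more embryos. The difference between lines was fitted to all 16 embryos with a line by genotype term. A Benjamini-Hochberg adjusted p under 0.05 was a call, and "rose" and "fell" refer to the mutants. A fold change is a difference of mean log2(value + 1) and understates that of low genes. The fit was tested on simulated data. Alternatives were edgeR 4.0.16, DESeq2 1.42.0 and limma-voom on recovered reads, other filters and pseudocounts (0.1 and 5), rescaling without globin and mitochondrial genes, the mean log2 level of the yolk sac markers as a term, the authors' adjusted p, and leaving out each embryo. Gene positions are from GENCODE M21 (GRCm38), and promoter windows from RefSeq (GRCm38.p6).

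The 44 gene lists were written from textbook knowledge, and they, the members and the tests were chosen with earlier results of these data known. Genes named are the 25 largest rises and falls among called genes of at least 100 normalised reads without overlap, the 10 most abundant calls and the 10 smallest p (those shown are a choice of these), called list members, otherwise those of smallest p, genes that differed between lines, and defining markers. Others were chosen after their values were seen. A few genes that these rules cover are not reported here.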

Additional observations from a re-analysis of the deposited data

Results flagged for a closer look

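Among 350 groups of 4 embryos looked at, 23 had 1 embryo far from the other 3, with a gap to its nearest neighbour, as a share of the group's range, above Dixon's critical value; chance gives about 1 in 20. Mutant 33 stood above the other mutants for the yolk sac genes Cubn (11842 normalised reads), Ttr (5632), Hnf4a (1283) and Phlda2 (1201), and also for Dsp (27274) and Aldh1b1 (461). Its summed yolk sac markers were the highest of the mutants, and their part in these values was not tested. Mutant 36 was below the others for Hspa5 (38427) and Creld2 (1897), and mutant 41 above them for Cacna1g (1039.9). Control 20 was above the other controls for Notch1 (3033), Sox1 (3114), Bop1 (5965) and Hsph1 (20148), and below them for Bambi (1388), Emp1 (231) and the summed endothelial markers (12345). Control 29, with the highest yolk sac sum, was lowest for Tnnt1 (105) and Nes (3624) and highest for Slc2a1 (83731), Sema4a (617) and Sema4g (1023). Control 37 was highest for Prdm12 (56.5), and control 35 was the control with reads of Nr0b1 (8.52).

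The test of the difference between lines picked out Greb1l, whose fold change was lower in G17 than in G3 by -2.11 on the log2 scale, and Oxct1, whose fold change was higher in G17 by 1.57, both by the G3 labels.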

How the results depend on the processing

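No paired analysis was possible because the G17 mutants and controls share no embryo number. With DESeq2 on recovered reads 565 genes rose and 507 fell, and by the authors' deposited adjusted p 334 fell; the cause was not tested. With the yolk sac level as a term, which uses 1 more degree of freedom and moves with the groups, 113 rose and 28 fell. Leaving out each embryo gave 169 to 378 genes that rose and 50 to 296 that fell, and a Greb1l log2 fold change of -1.38 to -1.13. The other settings (edgeR, limma-voom, filters, pseudocounts, rescaling) kept both counts within 1.5 times of 331 and 206. Greb1l fell and was called in all 17 alternative fits run for it, which do not include the authors' adjusted p. Between the lines, Greb1l and Oxct1 were the 2 genes called in each of the 22 alternative fits (edgeR, filters, pseudocounts, a sex term and leaving out each of the 16 embryos); DESeq2, limma-voom, rescaling and the yolk sac term were not run there. Under the yolk sac term 2 named genes turned direction, Afp (0.099) and Apoa1 (0.0065), neither of them called there. Both are markers from which the term is built, so values near 0 follow from the fit. Depth limits the calls of low genes, as the share called under 100 normalised reads shows.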

Other observations

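Beside Hspa5, 6 other called genes with a role in the endoplasmic reticulum are given here. They were picked for their falls after the values were seen, so they say nothing of other genes of that compartment. Hyou1, a large chaperone gene, had 16488, 14829, 17649.8 and 16324 normalised reads in the mutants, against 21397, 19288, 19730.00 and 19951 in the controls (log2 fold change -0.30 ± 0.06, adjusted p = 0.0245; limma, Benjamini-Hochberg). Dnajb11, a co-chaperone gene of BiP, had 4314, 4212, 4369.97 and 3933 in the mutants, against 5085, 5789, 6074 and 5459 in the controls, and Dnajc3, another, 4604, 3764, 4256 and 4518 in the mutants, against 5234, 7180.1, 6233 and 5593 in the controls. Creld2, induced by misfolded proteins, had 2755, 1897, 2931 and 2774 in the mutants, against 3529.6, 3610.2, 3645 and 3789 in the controls. Xbp1, a factor gene of the unfolded protein response, had 3680.3, 3455, 3739 and 3997 in the mutants, against 4358, 5685, 4863 and 4915 in the controls, and Kdelr3, which returns resident proteins to this compartment, 351, 277, 130.4 and 152 in the mutants, against 426, 708, 671 and 568 in the controls. With the yolk sac marker level as a term none of the 6 was called, and Hyou1 was at -0.34, adjusted p = 0.168.

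Called lipid enzyme genes outside the sterol list, likewise chosen after their values were seen, moved in both directions. Elovl6, which lengthens saturated fatty acids, had 6429, 6726, 5738 and 5923 in the mutants, against 3710.1, 2170.1, 3659 and 3997 in the controls (0.91 ± 0.16, adjusted p = 0.00825). Acat2, which makes the first building block of sterols, had 3280.02, 3004, 3286 and 3733 in the mutants, against 2198, 1989, 2231 and 2337 in the controls (0.60 ± 0.09, adjusted p = 0.00492). Fads1, a fatty acid desaturase gene, had 6607, 5759, 5883 and 6905 in the mutants, against 5045, 4265, 4649.9 and 4639 in the controls. Agpat3, an acyltransferase gene of phospholipid synthesis, fell and had 2197, 1392, 1623 and 1974 in the mutants, against 3030.5, 3984, 3265 and 2976 in the controls (-0.90 ± 0.14, adjusted p = 0.00565). Dgat2, which makes triglycerides, had 863, 541, 656 and 749.8 in the mutants, against 1045, 1891, 1348 and 1415 in the controls (-1.01 ± 0.19, adjusted p = 0.0142). Degs1 of ceramide synthesis (-0.69 ± 0.17, adjusted p = 0.0475) and Soat2 of sterol ester synthesis (-1.94 ± 0.47, adjusted p = 0.0414) fell too, with mutant 33 above control 20 in both. Degs1 was called in 3 and Soat2 in 2 of the 8 fits that left out 1 embryo, and the others in 7 or 8. With the yolk sac level as a term none of these lipid genes was called. Agpat3 was then at -0.44, adjusted p = 0.343, Dgat2 at -0.36, adjusted p = 0.683, and the riser Elovl6 at 0.62, adjusted p = 0.323.

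Further falls of moderate level had no list. Kbtbd11, a gene of a BTB and kelch protein, had 237, 618, 518 and 626 in the mutants, against 2109, 1036, 1373 and 1396 in the controls (-1.61 ± 0.30, adjusted p = 0.0114), with mutant 33 lowest. Emp1, an epithelial membrane protein gene, averaged 111 ± 28.2 in the mutants and 374 ± 96.00 in the controls, and Wfikkn1, which encodes a secreted protein that binds myostatin, 164 ± 37.6 in the mutants and 488 ± 194 in the controls (SD, n = 4 each). Eef1a2, the translation elongation factor gene of neurons and muscle, rose and had 323, 339, 319 and 404 in the mutants, against 148, 23.9, 58.4 and 15.2 in the controls.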
